A study of Caenorhabditis elegans with 2 samples.

Results

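The mir-51 family of Caenorhabditis elegans consists of 6 microRNA genes, mir-51 to mir-56, and the account below describes where ALY-1-GFP was found on chromatin at these genes in early embryos. They were taken by name from the Ensembl annotation of WBcel235, as 6 of 261 annotated microRNA genes and of 46890 annotated genes on the 6 nuclear chromosomes. The family was chosen by the ranks of its peaks in these same lists, so those ranks are given as a description and no test was made on them. A gene was taken to have a peak when the summit, the highest point of the peak, lay within 1000 bp of the annotated gene.

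MicroRNAs are short RNAs cut from a hairpin precursor, which guide Argonaute proteins to messenger RNAs through base pairing of the seed near their 5′ end. The mir-51 family carries the seed of the animal mir-100 family, and in the worm it is known as an embryonic family whose members act together and whose joint loss is lethal, with detachment of the pharynx and a genetic link to the cadherin gene cdh-3. ALY-1 belongs to the Aly/REF proteins, nuclear adaptors that bind messenger RNA and load it for export.

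The study profiled ALY-1 by ChIP-seq in hermaphrodite worms of strain OP502 (unc-119(tm4063) III; wgIs502), harvested as early embryos 0 hours after egg bleaching. Both replicates carry the unc-119 mutation and the wgIs502 transgene, which supplies ALY-1 with GFP and FLAG at its C terminus. An anti-GFP antibody recovered the sonicated chromatin. The 2 biological replicates form 1 group, both were set against the same control alignment, and no immunoprecipitation from untagged worms was analysed here, so signal that does not depend on ALY-1 cannot be told apart from signal that does. The tagged protein comes from an inserted transgene in whole embryos, and the peaks average over all their cells. Each replicate has 30000 candidate peaks, both together have a further 30000 pooled candidate peaks, and 881 thresholded peaks passed the authors' reproducibility procedure (IDR). Peaks were ranked within each list by the authors' signal value, a score whose scale is set within each list. All coordinates are on build ce11. The files give no read numbers, so depth is unknown. The labels name the replicates as biological but do not say that the embryos came from separate cultures.

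The mature sequences that carry the family's seed show what the 6 genes share. Each is printed 5′ to 3′ from RefSeq (WBcel235), with the seed, bases 2 to 8, in capitals.
mir-51: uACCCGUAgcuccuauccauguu
mir-52: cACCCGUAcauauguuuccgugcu
mir-53: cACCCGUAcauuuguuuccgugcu
mir-54: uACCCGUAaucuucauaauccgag
mir-55: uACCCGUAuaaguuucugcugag
mir-56: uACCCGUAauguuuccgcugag

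The seed ACCCGUA was the shared element of the family. Of 260 microRNA genes with a mature sequence in RefSeq, these 6 were the ones that carried it. Compared without gaps over 22 positions, the 6 sequences were identical at 7 positions, which are bases 2 to 8. The pair mir-52 and mir-53 was nearly the same RNA, with 23 of 24 positions identical, while the other pairs shared 9 to 14 positions. The sequences lie in the 5′ arm of the hairpin in mir-51, mir-52 and mir-53 and in the 3′ arm in mir-54, mir-55 and mir-56. Over whole hairpins, mir-52 and mir-53 were 79% identical in a global alignment and the other 14 pairs were 45.0 to 57.1% identical.

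The genes stand at 3 loci. On chromosome IV, mir-51 (IV:11026013-11026112, minus strand) and mir-53 (IV:11027593-11027691, minus strand) lie on the same strand with 1480 bases between them. The aldehyde dehydrogenase gene alh-3 lies past mir-51 on the other strand, 143 bp from it, and the protein-coding gene hrg-5 lies 598 bp upstream of mir-53. The gene mir-52 (IV:14034008-14034107, plus strand) stands alone, 8488 bp from the nearest protein-coding gene, Y37A1B.7, among several unclassified non-coding RNA genes. On chromosome X, mir-54 (X:13144996-13145094), mir-55 (X:13144827-13144924) and mir-56 (X:13144691-13144787) follow each other on the minus strand with 71 and 39 bases between them. These 3 sit in an intron of the protein-coding gene F09A5.3, which runs on the plus strand. A further annotated microRNA gene, mir-55b, overlaps mir-55 on the plus strand and is no member of the family.

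ALY-1-GFP signal was high at mir-51 and mir-52 in both replicates, lower at the chromosome X genes and low at mir-53. The strongest peak within 1000 bp ranked 3 of 30000 in the pooled list at mir-51, 53 at mir-52 and 445 at mir-54, mir-55 and mir-56, which share it. At mir-53 it ranked 7787. The order of the loci was the same in each replicate taken alone, with mir-51 ahead of mir-52, mir-52 ahead of the chromosome X genes and mir-53 last. By q-value mir-51 and mir-52 were tied at the top value of each list, so their order rests on the signal value. The ranks of the 2 replicates were 5 and 3 at mir-51, 94 and 29 at mir-52, 253 and 1152 at the chromosome X genes and 7358 and 4266 at mir-53. Each is the strongest peak in reach, which need not be the same peak. On chromosome X it was the peak past mir-56 in replicate 1 and one upstream of mir-54 in replicate 2, where the peak past mir-56 ranked 1193. At mir-53 the summits of the 2 replicates also lay apart. The loci did not overlap in these values, though 2 replicates give little measure of the spread. In replicate 1 the step between mir-52 and the chromosome X genes was smaller, as a ratio of ranks, than the difference between replicates at either locus.

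**Figure D1:**
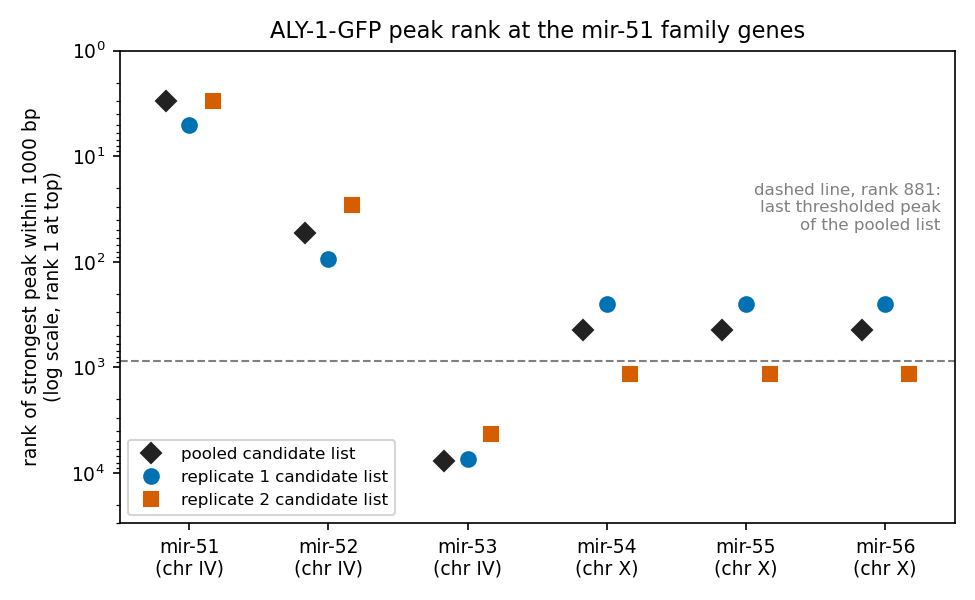
Rank of the strongest ALY-1-GFP candidate peak with its summit within 1000 bp of each mir-51 family gene, on a log axis with rank 1 at the top, in the pooled list (diamonds), replicate 1 (circles) and replicate 2 (squares). The dashed line marks rank 881, the last thresholded peak of the pooled list. The 3 marks of mir-51 sit between ranks 3 and 5, those of mir-52 between 29 and 94, and those of mir-53 between 4266 and 7787.

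At least 1 thresholded peak lay within 1000 bp of 5 of the 6 family genes, the exception being mir-53. The same held for 27 of the 255 other microRNA genes (10.6%), for 1768 of 46890 annotated genes (3.77%) and for 874 of 19973 protein-coding genes (4.38%). Because the family was chosen for these peaks, the difference is not read as a result. The 5 genes rest on 4 peaks at 3 loci, since the chromosome X genes share 1 peak. That peak also counts for mir-55b, among the 27. Among the 881 strongest peaks of replicate 2 alone the count was 2, because the chromosome X peaks rank 1152 and 1193 there, and among the 881 strongest of replicate 1 alone it was 5. It was also 2 when the summit had to lie within 250 bp of the gene, or the peak had to overlap it. The last peak inside the thresholded list ranked 881 with signal 85.5298, and the first outside it ranked 882 with signal 85.5224, so no gap in signal marks the threshold.

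The peak at mir-51 was among the strongest of the genome, at rank 3 in the pooled list. It spans IV:11025899-11026373 with signal 552, where the strongest peak of that list has 643. It covers the whole of mir-51 and has its summit 86 bp upstream of the annotated 5′ end. In replicate 1 the peak ranked 5 with signal 229, against a list maximum of 293, and its summit fell on the same base. In replicate 2 it ranked 3 with signal 315, against a list maximum of 388, and its summit lay 95 bp upstream. Both replicates therefore placed it among their 5 strongest peaks, with nearly the same summit. Replicate 1 alone lists a second, weak summit 285 bp upstream, ranked 7635.

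The summit of the mir-51 peak lies inside another RNA gene. F36H1.17 (IV:11026131-11026219, minus strand) is an 89 bp gene annotated as an unclassified non-coding RNA, on the same strand as mir-51 and just upstream of it. The pooled summit falls on its base 22. Its sequence is shown because the peak ranked 3 is centred on it, and the capitals mark the letters GGTTCGA, the core of the B box, an internal promoter element of tRNA genes read by RNA polymerase III.
F36H1.17: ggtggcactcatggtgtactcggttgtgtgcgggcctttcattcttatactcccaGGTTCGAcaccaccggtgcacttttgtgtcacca

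These letters occupy bases 56 to 62 of F36H1.17. In the most stable fold predicted for the RNA (−44.1 kcal/mol), its first 8 bases pair with the 8 before the last base, so that both ends close a stem. GGTTCGA occurred on either strand in 16.8% of the 881 thresholded windows, 300 bp around each summit, and in 2.29% of 46884 windows of the same length at gene starts. The gene-start windows run from 250 bp before the annotated 5′ end to 50 bp past it. They do not cover letters deeper in a gene, such as bases 56 to 62 of F36H1.17, so the 2 shares are not for windows placed alike. After these values were seen, the thresholded windows were split by the nearest tRNA gene. The letters stood in 111 of 168 windows with a tRNA gene within 250 bp of the summit (66.1%) and in 37 of 713 others (5.19%). The annotated bodies of tRNA genes held them in 395 of 612 cases (64.5%). The mir-51 window belongs to the 37, because the nearest annotated tRNA gene is 205367 bp from its summit and the nearest snoRNA gene 56949 bp. A match in letters describes the sequence, and whether F36H1.17 is transcribed or by which polymerase was not tested.

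The mir-52 gene carried 2 overlapping thresholded peaks. The stronger spans IV:14033774-14034198, ranks 53 with signal 243 and has its summit 38 bp past the 5′ end, inside the gene. The weaker spans IV:14034139-14034368, ranks 153 with signal 156 and has its summit 139 bp past the 3′ end. The hairpin is shown because the stronger summit lies in it, with both mature sequences in capitals.
mir-52 hairpin: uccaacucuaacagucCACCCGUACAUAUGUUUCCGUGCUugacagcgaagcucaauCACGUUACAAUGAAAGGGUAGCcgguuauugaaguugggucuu

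The summit falls within the first of these capitals, the mature sequence at IV:14034024-14034047. The same base lies in Y37A1B.335, an unclassified non-coding RNA gene on the other strand that overlaps mir-52, and 42 bp past the end of Y37A1B.330, one of the same class that ends just before mir-52. Peaks carry no strand, so signal from mir-52 and from these genes cannot be told apart. Replicate 2 also listed 2 strong peaks here, ranked 29 and 126, with summits 13 and 216 bp past the 5′ end. Replicate 1 placed 1 strong peak between them, ranked 94 with its summit at 113 bp, and a weak one ranked 5516 at 318 bp. The replicates thus differ in how they divide the signal over mir-52, and the summit position is less certain than at mir-51.

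The peak nearest to mir-53 was weak in every list. The pooled candidate ranked 7787 with signal 43.8 and a −log10 q-value of 0.495, and its summit lay 184 bp upstream. Replicate 1 ranked its peak 7358, with the summit inside the gene, 60 bp past the 5′ end. Replicate 2 ranked its peak 4266, with the summit 185 bp upstream. Among the other microRNA genes, 85 had a better pooled rank than mir-53. Its near-identical relative mir-52 therefore ranked 53 while mir-53 ranked 7787. The strong peak at mir-51, downstream of mir-53 on the same strand, did not reach within 1000 bp of it.

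At the chromosome X cluster the thresholded peak lay past the end of the last gene. It spans X:13144176-13144659, ranks 445 with signal 105, overlaps none of the 3 genes and has its summit 273 bp beyond the 3′ end of mir-56. Measured from the 5′ ends, the summit is 369 bp downstream for mir-56, 506 bp for mir-55 and 676 bp for mir-54. Below the threshold, a pooled peak ranked 1654 with signal 71.2 has its summit 186 bp upstream of mir-54, beside the short non-coding RNA gene F09A5.11, whose annotated 5′ end is 9 bp away. Another, ranked 9802 with signal 39.9, covers mir-56 with its summit 71 bp past the gene. All of these summits lie in the same intron of F09A5.3, at least 2690 bp from its nearest exon, and 23087 bp or more from the nearest tRNA gene.

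The peak past mir-56 led the cluster in replicate 1, while in replicate 2 it and the upstream peak were nearly level. In replicate 1 the peak past mir-56 was the strongest of the cluster, at rank 253, ahead of the upstream peak at 1352 and the middle one at 1821. In replicate 2 the upstream peak ranked 1152, with its summit 278 bp from mir-54, and the peak past mir-56 ranked 1193. Their signal values in replicate 2 were 47.8 and 47.4, and their −log10 q-values, 1.93 and 1.95, ran the other way. Replicate 2 has no counterpart of the middle peak. The sequence around the upstream summit is shown because that peak lies before the annotated 5′ end of the first gene. That around the thresholded summit is shown for comparison. Each is 101 bases on the strand of the genes, with the central 11 bases in capitals.
X:13145230-13145330, minus strand, rank 1654: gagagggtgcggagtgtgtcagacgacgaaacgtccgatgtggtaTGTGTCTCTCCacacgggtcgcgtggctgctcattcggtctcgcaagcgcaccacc
X:13144368-13144468, minus strand, rank 445: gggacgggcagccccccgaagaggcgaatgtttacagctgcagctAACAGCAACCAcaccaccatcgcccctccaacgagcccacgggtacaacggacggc

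**Figure D2:**
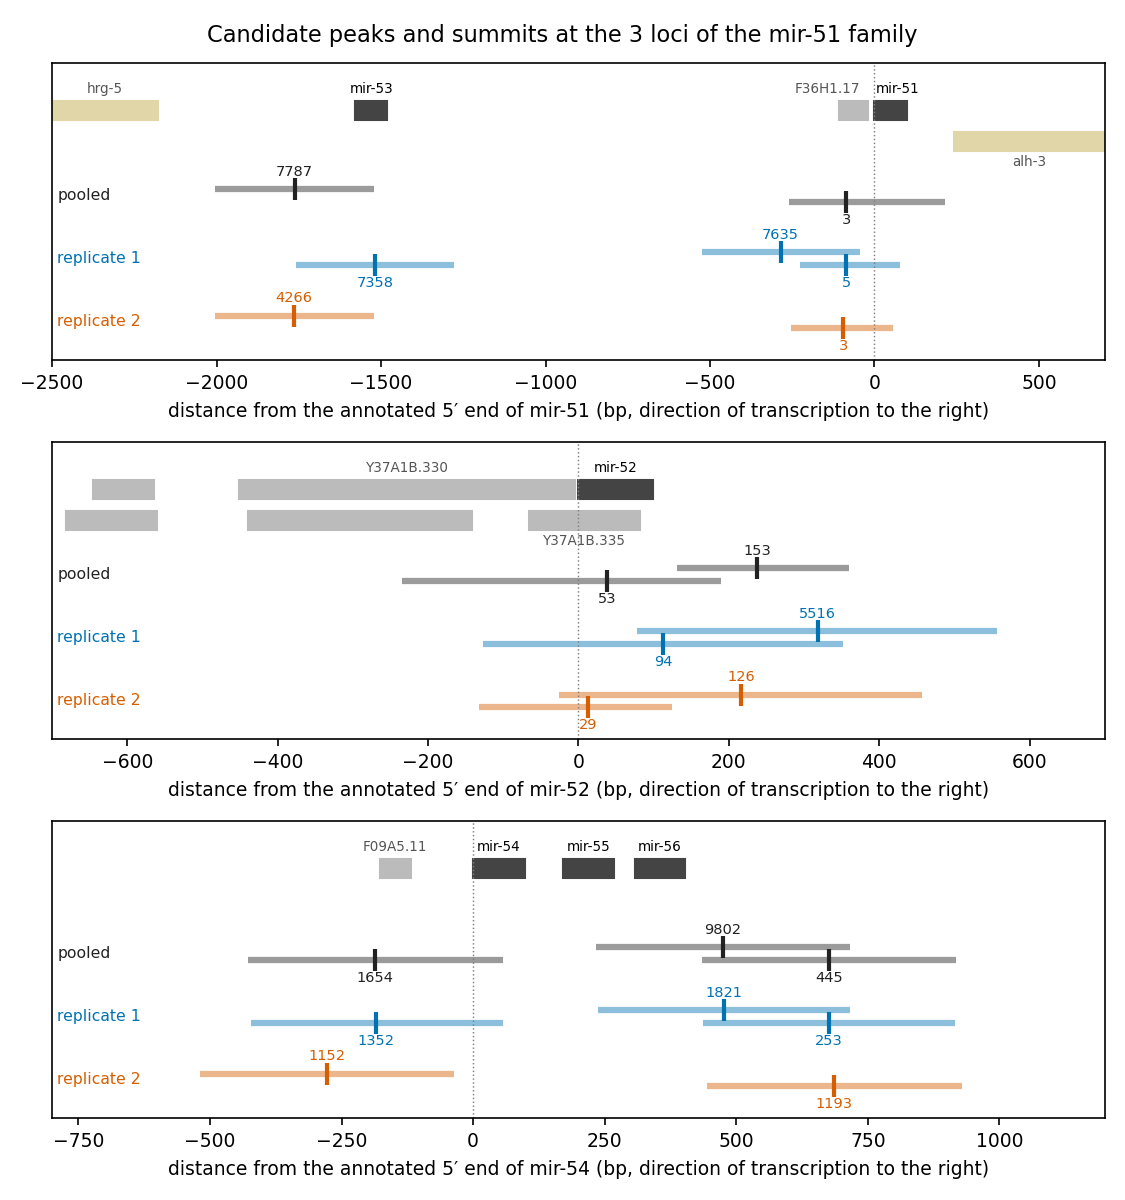
Candidate peaks at the 3 loci of the family, as distance in bp from the annotated 5′ end of mir-51, mir-52 or mir-54, with transcription of that gene to the right. Boxes are genes (black for family members, grey for other non-coding RNA genes, tan for protein-coding genes; the lower row is the other strand; mir-55b and F09A5.3 are not drawn), horizontal bars are peaks, ticks their summits and numbers their ranks within each list. The strongest mir-51 summit of each list lies 86 to 95 bp upstream, and replicate 1 has a further weak one at 285 bp. The mir-52 summits spread over the gene and past it, and the chromosome X summits lie on both sides of the cluster.

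Several sequence properties of the family's peaks were set beside those of all thresholded peaks. Over the 300 bp around each summit, GC content was 50.7% at mir-51, 41.0% and 39.0% at mir-52, and 60.0% at the thresholded chromosome X peak. The median of the 881 thresholded windows was 48.0%, with quartiles of 43.3% and 52.3%. That of the gene-start windows, which lie mostly upstream of the 5′ end, was 33.0%. The chromosome X window was thus richer in GC than most thresholded windows and both mir-52 windows were poorer. Each of the 271 positions of these windows starts a 30-base word found once in the genome, a check chosen after the peaks were seen, so copies elsewhere do not share reads of that length with them.

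Apart from GGTTCGA, 5 further motifs were searched on both strands, of which none contains another. Shares at gene starts are again for windows from 250 bp before the 5′ end to 50 bp past it, not centred like the summit windows. CTCCGCCC, known from the upstream regions of worm microRNA genes, occurred in 1 of the 7 pooled windows at the family, the one upstream of mir-54, 119 bases before the summit. It stood in 4.09% of thresholded windows, 1.53% of gene starts and 7.66% of microRNA gene starts. CACGTG, the E box read by many helix-loop-helix factors, occurred in the same window, 85 bases before the summit, with 5.45% of thresholded windows and 4.14% of gene starts holding it. GAGAGA was in 4 of the 7 windows, the stronger mir-52 one, the mir-53 one and the 2 chromosome X ones below the threshold. It was in 47.2% of thresholded windows and 17.5% of gene starts. TATAA, part of the TATA box, was found at mir-51 alone of the 7, beside 24.9% of thresholded windows and 58.6% of gene starts. Its 2 matches there are centred 87 bases before the summit and 25 bases past it. The second lies inside F36H1.17 and reads TTATA on the strand of that gene, so it is no TATA box placed before it. TTTTT, on 1 strand the terminator of RNA polymerase III, was in 6 of the 7 with both strands counted, beside 75.4% and 96.8%. The match at mir-51 lies in the mir-51 hairpin and reads AAAAA on the strand of mir-51 and F36H1.17. It is therefore no terminator for either gene.

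The agreement between replicates at the family was within the range of other thresholded peaks. For each thresholded peak the strongest overlapping peak of each replicate was taken, and the larger of the 2 ranks was divided by the smaller. The ratio was 1.67 at mir-51, 3.24 and 1.34 at the mir-52 peaks and 4.72 at the chromosome X peak. Over all 881 thresholded peaks its median was 1.94 and its upper quartile 3.48. The chromosome X peak exceeded 82.9% of them, ranking 253 in replicate 1 and 1193 in replicate 2. At mir-52 the same replicate 1 peak, ranked 94, overlaps both pooled peaks.

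**Figure D3:**
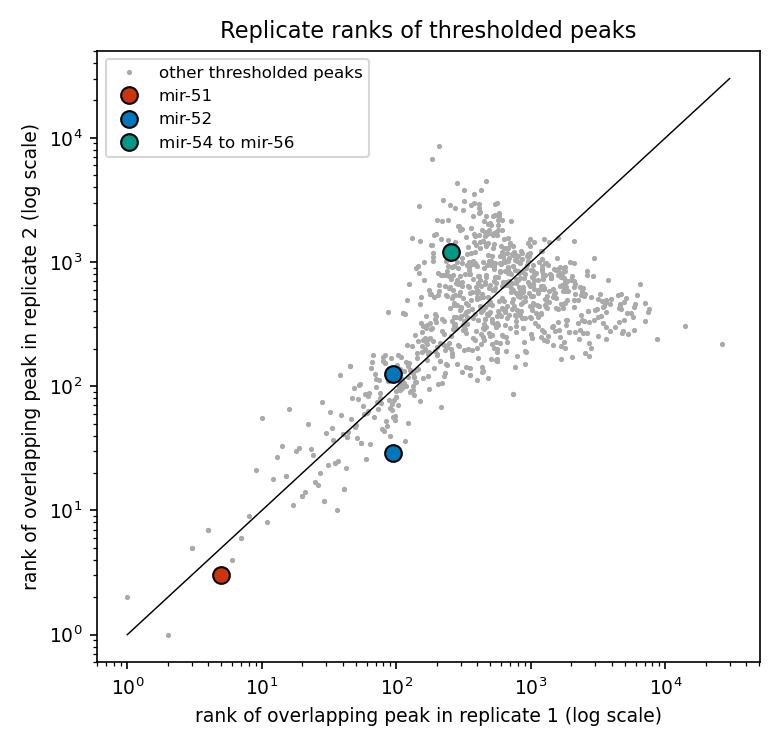
Rank of the overlapping peak in replicate 1 (horizontal) and replicate 2 (vertical) for each of the 881 thresholded peaks, both on log axes, with peaks of the family in colour, the others in grey and a line of equal ranks. The mir-51 peak lies at ranks 5 and 3, near the lower left corner, and the chromosome X peak lies above the line at 253 and 1193.

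Of the family's 4 thresholded peaks, those on chromosome IV were narrower than the common width. The width of 484 bp is shared by 91.8% of thresholded peaks, including the one on chromosome X, and 8.06% are narrower. The mir-51 peak measured 475 bp and the mir-52 peaks 425 and 230 bp, and the 3 pooled family peaks below the threshold had the common width. In replicate 1 the mir-51 peak measured 306 bp and in replicate 2 it measured 310 bp. At mir-52 both replicate 1 peaks had that list's common width of 480 bp, while in replicate 2 the peak ranked 29 measured 258 bp and the one ranked 126 measured 484 bp. The narrowness of the mir-52 peaks was therefore not seen in replicate 1.

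Among the other microRNA genes, none ranked ahead of mir-51 or mir-52, and 7 ranked ahead of the chromosome X genes. A candidate summit of any strength lay within 1000 bp of all 6 family genes, of 154 of the 255 others (60.4%) and of 45.1% of all annotated genes. The median best rank was 445 over the 6 family genes and 5664 over those 154. The family was chosen by these ranks, and its median is the rank of the 1 peak that the 3 chromosome X genes share, so the difference is not read as a result. The 27 others with a thresholded peak rested on 21 separate summits. For 5 of the 27 genes, some of which share a summit, a tRNA, snoRNA or small nuclear RNA gene lay within 250 bp of it. Of the strongest thresholded summits, those of the family lay upstream of the gene for mir-51, inside it for mir-52 and past it for the 3 chromosome X genes. Those of the 27 others lay upstream for 18 genes, at a median of 313 bp before the 5′ end, inside for 1 and past the gene for 8. The 27 and the 18 include mir-55b, on the plus strand, whose summit is that of the family's chromosome X peak. That peak is therefore counted on both sides, and among the 21 summits.

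The microRNA genes closest to the family in rank were found by the smallest sum of log10 rank differences over the 2 replicates. For mir-51 and mir-52 these were mir-58a and mir-4921. The first, an abundant microRNA of the bantam-related family, ranked 114 in replicate 1, 133 in replicate 2 and 127 in the pooled list. The second ranked 145, 137 and 139 in those lists and has a tRNA gene within 250 bp of its summit. Both were far from the ranks of mir-51 and nearer to those of mir-52, with a sum for mir-4921 of 3.12 against mir-51 and 0.863 against mir-52. For the chromosome X genes the closest was mir-55b, which has the same peaks, followed by mir-124, a microRNA of neurons, ranked 376 in replicate 1, 1452 in replicate 2 and 600 in the pooled list.

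The mir-51 family, with a thresholded peak at 5 of 6 genes and 3 loci, was set beside 4 other microRNA families listed by name. Over all microRNA genes outside the mir-51 family the share was 10.6%, and over all annotated genes 3.77%. The mir-51 family was chosen for these peaks, so its count is a description and not a result against the others. The mir-35 family, also known for its role in the embryo, had 1 of 8, with mir-42 at rank 470 and its other members at 1076 or 1287. The mir-58 family had 2 of 5, mir-58a at rank 127 and mir-80 at 267. The let-7 family of developmental timing regulators had 1 of 4, mir-241 at rank 750. The lin-4 family had 1 of 2, lin-4 itself at rank 579, while mir-237 ranked 26360. Outside that list, the genes mir-50, mir-62 and mir-90, which share a seed, had a thresholded peak at 3 of 3 genes, with 3 separate summits. Members of 1 cluster share peaks, so these counts are not of independent genes.

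**Figure D4:**
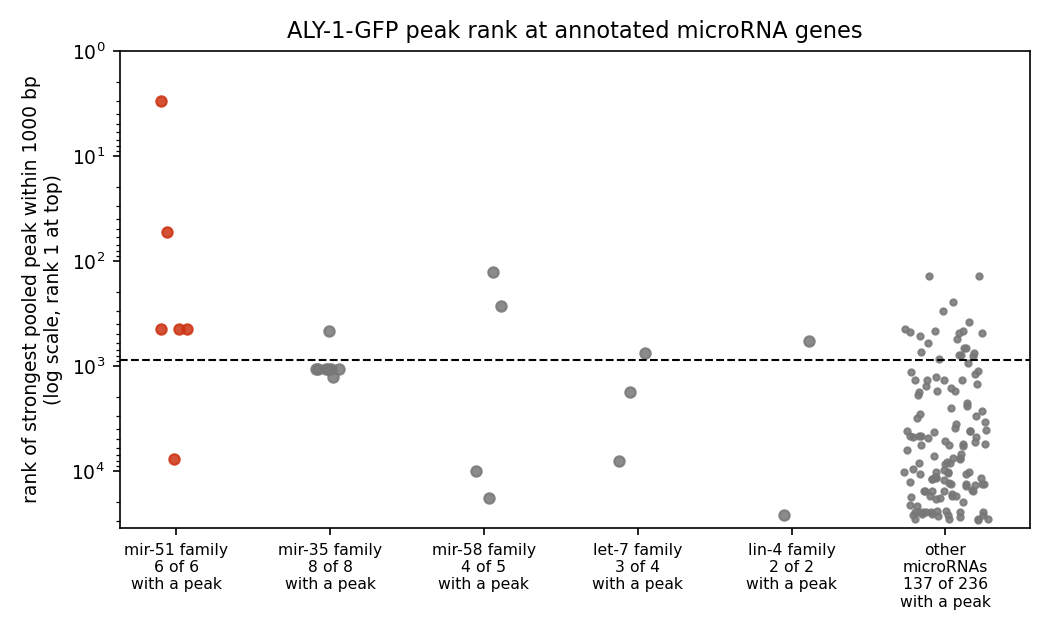
Rank of the strongest pooled candidate peak within 1000 bp of each annotated microRNA gene, on a log axis with rank 1 at the top, for the mir-51 family (red) and for the other families and the remaining microRNA genes (grey). Genes with no candidate peak in reach are not drawn, and their number follows from the counts under each group; the dashed line marks rank 881. The mir-51 and mir-52 points, at ranks 3 and 53, lie above every grey point, of which the highest is at 127.

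Genes that make and use microRNAs, and cdh-3, which is genetically linked to the family, were listed to see whether the pathway around the family carried the same signal. The list named 16 genes, of which 15 were found in the annotation, and 4 of these had a thresholded peak within 1000 bp, beside 4.38% of protein-coding genes. The gene alg-1, which encodes a microRNA Argonaute, had peaks ranked 328 and 494, with summits 754 bp upstream and 1702 bp past the 5′ end. The gene ain-1, whose product is a GW182-like partner of the Argonautes, had peaks ranked 495 and 536, and its relative ain-2 had 1 ranked 698. The gene rde-4, encoding a double-stranded RNA binding partner of Dicer, had 1 ranked 640, with its summit past the gene and nearer to cts-1. The genes of the processing enzymes drsh-1, pash-1 and dcr-1 had no thresholded peak, with best ranks of 1358, 12614 and 6765. The gene cdh-3 had a best rank of 18688. The 15 genes had a median length of 5428 bp, against 2027 bp for all protein-coding genes, and a longer gene comes within reach of more summits, so the share of 4 in 15 was not compared further.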

How the data were processed

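ALY-1-GFP chromatin was measured by ChIP-seq in 2 biological replicates of 1 group, as the labels give them. The deposited peak lists used here are on ce11, and no list on another build was used. Per the listings deposited beside each sample's files, peaks were called for each replicate and for both together with 1 control alignment, and the thresholded list is the set that passed IDR. The signal value is a score given by the authors' peak caller, relative to the control in an unstated way. Deposited q-values are on the −log10 scale, with 270 pooled peaks tied at the maximum of 2.73. The sources used here do not give the aligner, caller, versions or IDR cutoff. The 881 thresholded peaks are the 881 strongest of the pooled list. Depth is unknown, so no interval was computed.

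Summits were placed against Ensembl release 115 genes and peaks were ranked by signal. Sequences came from RefSeq. Folds used RNAfold 2.7.2. Scripts ran in Python 3.11.15 with numpy 2.4.6, pandas 2.3.3 and matplotlib 3.10.9, and placing was tested on simulated data. The members, gene lists and motifs were chosen with earlier results of these data known. Named genes are the members, genes at or nearest to their summits, their hosts and neighbours, other listed microRNA families, for each thresholded member up to 2 microRNA genes nearest in replicate rank, and thresholded pathway genes. Pathway genes without a thresholded peak, and genes given only to qualify a count, were named after their values were seen. Alternatives covered distance, peak overlap, the strength of peaks, ranking by q-value and each replicate alone.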

Additional observations from a re-analysis of the deposited data

How the results depend on the processing

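Of 105 alternative values, 75 stayed within the limits set for the same value, 25 moved and 5 changed sign. The limit was a fixed ratio for counts and the standard deviation of the 2 replicate values for ranks and positions. It is therefore wide where the replicates differ, and the settings with 1 replicate reuse the values that set it. The chromosome X genes also repeat shared peaks, so the 75 does not measure how stable the results are. The count of 5 family genes with a thresholded peak fell to 2 when the summit had to lie within 250 bp, when only the stronger 440 thresholded peaks were used, and when the peak had to overlap the gene. The count over other microRNA genes, 27, became 11, 7 and 10 under these settings. With the strongest peaks of 1 replicate alone, the family count ranged from 2 to 5 and the other count from 16 to 33. At 500 bp the chromosome X rank of mir-54 became 1654, and at 250 bp it was 1654 for mir-54 and 9802 for mir-55 and mir-56. At 2000 bp mir-53 reaches the mir-51 peak, at rank 3. Ranked by q-value, ties put mir-51 and mir-52 at 135.5 in the pooled list, both at 110.5 in replicate 1 and both at 90 in replicate 2, so that their order is lost. Taken from 1 replicate, the rank ranged from 3 to 5 at mir-51, 4266 to 7358 at mir-53 and 253 to 1152 at the chromosome X genes. The summit position ranged from −95 to −86 bp at mir-51, 13 to 113 at mir-52, −185 to 60 at mir-53, −278 to 676 at mir-54, −448 to 506 at mir-55 and −585 to 369 at mir-56. The pooled summit nearest to mir-54 lies at −186 bp, upstream instead of downstream. In replicate 1, mir-53 has no summit within 100 bp of the pooled one. The cause of these shifts was not tested beyond what each setting removes. No paired analysis was possible because there is 1 group. Depth and the absence of an untagged immunoprecipitation limit every value.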

Other observations

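Grouping all microRNA genes with a mature sequence in RefSeq by their seed gave 16 families of 3 or more genes. Of these, 9 had a gene with a thresholded ALY-1-GFP peak, 4 had 2 or more separate thresholded summits and 2 had 3 or more. One was the mir-51 family, with 3 separate summits counting the strongest at each gene. The other was the family of mir-62, mir-90 and mir-50, which share a seed. There mir-62 ranked 245, mir-90 ranked 477 and mir-50 ranked 551 in the pooled list, each at its own locus on chromosome X, III and I. Their summits lay 375, 351 and 440 bp upstream of the annotated 5′ ends. The strongest peak in reach of each gene ranked 197, 744 and 353 in replicate 1 and 364, 440 and 561 in replicate 2. At mir-62 the replicate 2 peak that overlaps the pooled one ranked 369. Of the 4 families, that of mir-43 and mir-250 and that of mir-44 and mir-61 have the same 2 thresholded summits. The summit of mir-42, in the mir-35 family, is 1 of these, so the counts of 9 and 4 are not of separate peaks. The grouping was made after the ranks were known and the counts are a description.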
